A study of Homo sapiens with 14 samples.

Results

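The genes described are 10 feedback brakes on the mitogen-activated protein kinase (MAPK) pathways: the MAPK phosphatase genes DUSP1, DUSP4, DUSP5, DUSP6, DUSP8 and DUSP10, the Sprouty genes SPRY2 and SPRY4, and the Sprouty-related genes SPRED1 and SPRED2. They are 10 of the 56479 genes in the count table and were taken by gene name. All 10 were among the 19232 genes with enough counts to be tested. The set was chosen by name and function, with the levels of these genes in the same 14 libraries and their differences between groups already known. Member levels and differences are therefore given as a description and carry no p-value.

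The libraries are bulk RNA-seq of HepG2, an established human line that the labels call a hepatoblastoma, and Hep3B, an established human line that they call a hepatocellular carcinoma. Both are labelled as wild type, and each of the 7 groups holds 2 libraries. On culture dishes, HepG2 was grown for 5 days in isotonic medium or in the same medium made hyperosmotic with 4% PEG, here polyethylene glycol 300, which draws water from the cells. On transwells, porous membranes held in a well, HepG2 either carried no load or was pressed by a weight. Hep3B was grown on transwells throughout, with no load, pressed by a weight, or in 3% PEG. How heavy the weight was and how long the transwell treatments lasted is not stated in the sources at hand, and each type of liver tumour is represented by 1 line. The study's title asks about adaptation of liver cancer cells to a loss of volume.

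Receptors for growth factors switch on the small GTPase RAS, which starts a relay of kinases (RAF, MEK and ERK) that ends in the nucleus. JNK and p38 are parallel kinases that answer stress, among them a rise in osmolarity. Dual-specificity phosphatases (DUSP) remove the phosphates that make ERK, JNK or p38 active, and Sprouty and Spred proteins restrain the relay between the receptor and RAF. Several of these brakes, DUSP5, DUSP6 and SPRY4 among them, are themselves induced by ERK signalling and so close a feedback loop. Transcript level is what was measured here; kinase activity and protein were not.

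Promoter sequences of DUSP1 and DUSP8 are shown because both genes stood higher under the weight in HepG2 and both hold the cAMP response element TGACGTCA. This palindrome, bound by CREB and ATF factors, lies in the 250 bases before the annotated start. The pair was picked by motif and direction together, and a link between the element and the weight was not tested. RefSeq (GRCh38.p14) gave 12 such windows for 8 of the 10 genes, and DUSP4 and DUSP5 are named only. The sequences read 5′ to 3′ on the minus strand, the strand of both genes, with TGACGTCA in capitals. The DUSP1 window is chr5:172771196-172771445 and the DUSP8 window is chr11:1572272-1572521. Each lies outside its own gene and within an intron of an antisense gene in GENCODE 29.
DUSP1: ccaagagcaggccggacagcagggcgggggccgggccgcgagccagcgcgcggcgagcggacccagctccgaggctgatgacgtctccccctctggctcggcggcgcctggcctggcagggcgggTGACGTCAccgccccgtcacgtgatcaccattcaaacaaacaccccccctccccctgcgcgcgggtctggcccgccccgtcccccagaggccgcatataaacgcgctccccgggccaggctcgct
DUSP8: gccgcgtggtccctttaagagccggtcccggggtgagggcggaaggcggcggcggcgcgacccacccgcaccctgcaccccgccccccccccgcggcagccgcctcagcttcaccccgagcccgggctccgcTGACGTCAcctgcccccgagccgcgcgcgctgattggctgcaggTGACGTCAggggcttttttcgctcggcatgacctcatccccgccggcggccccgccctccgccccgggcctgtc
In DUSP1 the match spans bases 125 to 118 before the start, and DUSP8 has 2 matches, at 118 to 111 and 74 to 67 before it. Among 35116 windows of 250 bases, 1.65% held TGACGTCA. The other motifs searched were the AP-1 site TGANTCA (6.57% of windows), the ETS site CCGGAAG (8.52%) and the serum response element core known as the CArG box (1.16%), on both strands, and none of these was found in the 12 windows. TGACGTCA was in no window of the other members. DUSP10 also stood higher under the weight in HepG2 (0.91 ± 0.27 in log2) and its windows held no match. DUSP4 and DUSP5 stood higher there and had no window. Under the weight in Hep3B, DUSP1 and DUSP8 lay on opposite sides of the control (0.35 ± 0.18 and -0.20 ± 0.35). In HepG2 on dishes the PEG differences of both were negative (-0.58 ± 0.17 and -1.20 ± 0.38). A match describes the letters of the window and no measurement here shows a factor bound to it.

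Each library held between 21.2 M and 35.4 M counts. Levels are in CPM, counts scaled to a common TMM-adjusted library size, and are given for replicate 1 and then replicate 2, and a value written with ± after a log2 difference is its standard error from the edgeR fit over all tested genes. Transwell replicates were close, with a biological coefficient of variation of 0.0434 to 0.0704 for a pair, while the dish pairs stood at 0.323 in isotonic medium and 0.29 in 4% PEG. The difference between the 2 dish replicates of a group went with transcript GC content (rank correlation over 19232 genes of -0.642 and -0.652), and its part in the dish results was not tested. RB1, whose loss is a known mark of Hep3B, stood at 101 to 147 CPM in HepG2 and 2.63 to 4.94 CPM in Hep3B. The summed level of 6 liver markers (ALB, AFP, APOA1, APOB, TTR and SERPINA1) ran from 115000 to 126000 CPM in isotonic HepG2 against 29100 to 31900 in 4% PEG, and from 38600 to 41300 in uncompressed Hep3B against 26100 to 26300 in 3% PEG. In uncompressed HepG2 on transwells it ran from 91700 to 99300 CPM and under the weight from 73900 to 82700, and in Hep3B under the weight from 38700 to 40000. Of the markers of other cell types, PTPRC (leukocytes) had no count in any HepG2 library, CDH5 (endothelium) had none in any Hep3B library, and DCN (fibroblasts) had at most 1 count in a HepG2 library. The summed level of the 2 leukocyte markers was 1.8 to 1.88 CPM in isotonic HepG2 and 7.91 to 10.9 CPM in 4% PEG, all of it CD68. That of the 3 fibroblast markers was 12.3 to 18.6 and 2.03 to 3.47 CPM, and that of the 2 endothelial markers 11 to 12.9 and 12.4 to 13.2 CPM. In the transwell groups these 3 sums ran up to 1.77, 27.1 and 9.46 CPM, and the part of other cells in the results was not tested. In bulk RNA, fewer cells of a kind and less RNA per cell cannot be told apart.

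DUSP5 encodes a nuclear phosphatase specific for ERK and spans chromosome 10, 110497838 to 110511544 on the plus strand (GRCh38, GENCODE 29, as for all genes below). Its level was 4.42 and 5.12 CPM in isotonic HepG2 and 277 and 468 CPM in 4% PEG. The treated libraries lay far above the controls, at a mean of 372 ± 135 CPM (SD, n = 2) against 4.77 ± 0.493, which is 78.3-fold or 6.29 ± 0.27 on the log2 scale. That difference ranked 152nd from the highest of 19232 genes. On transwells DUSP5 was at 3.35 and 4.34 CPM in uncompressed HepG2 and 9.08 and 9.29 CPM under the weight, a log2 difference of 1.25 ± 0.25. Hep3B read 1.29 and 1.61 CPM uncompressed, 2.92 and 3.71 CPM under the weight and 3.1 and 2.93 CPM in 3% PEG. Its log2 differences there were 1.19 ± 0.28 for the weight and 1.05 ± 0.29 for 3% PEG. DUSP5 was thus higher in the treated libraries of all 4 comparisons, with no overlap between the groups in any of them. The counts of its processed copies were low, at most 30 for DUSP5P1 in a library.

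DUSP1 is an immediate early gene whose product acts in the nucleus on p38 and JNK as well as ERK, at chromosome 5, 172768090 to 172771195 on the minus strand. In HepG2 on dishes it stood at 109 and 88.8 CPM in isotonic medium and 75.8 and 57.3 CPM in 4% PEG. It was lower in both treated libraries, by -0.58 ± 0.17 in log2. On transwells the direction was the other way, with 34.1 and 31.8 CPM uncompressed and 58.5 and 55.7 CPM under the weight (0.79 ± 0.17). Hep3B held less of it, 12.2 and 11.5 CPM uncompressed, 13.3 and 17 CPM under the weight and 18.4 and 21.2 CPM in 3% PEG. Both Hep3B treatments lay above the control without overlap, at 0.35 ± 0.18 for the weight and 0.74 ± 0.18 for 3% PEG. DUSP1 also differed with the culture surface: untreated HepG2 on transwells stood at -1.59 ± 0.17 in log2 against HepG2 on dishes, followed by DUSP8 at -1.30 ± 0.38. The DUSP8 value rests on the dish libraries: it was -1.81 without isotonic replicate 1 and -0.54 without isotonic replicate 2. Of the 10 members, DUSP1 alone was past the adjusted p threshold of 0.05 in that contrast, where 10.1% of all tested genes were past it.

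DUSP4, a nuclear phosphatase that acts on ERK and JNK (chromosome 8, 29333064 to 29350668, minus strand), was scarce in HepG2 and less so in Hep3B. In HepG2 it was 0.495 and 0.657 CPM in isotonic medium and 1.59 and 1.87 CPM in 4% PEG, and 0.758 and 0.621 CPM uncompressed against 1.53 and 1.91 CPM under the weight. The log2 differences were 1.59 ± 0.29 and 1.32 ± 0.30, and neither pair of groups overlapped. In Hep3B the level was 6.95 and 5.51 CPM uncompressed, 4.96 and 6.22 CPM under the weight and 2.26 and 1.87 CPM in 3% PEG. The weight and control libraries overlapped there (-0.16 ± 0.23), while both 3% PEG libraries lay below the control (-1.59 ± 0.24). DUSP4 and DUSP5, brakes of like function, were thus both higher in 4% PEG in HepG2 and lay in opposite directions in 3% PEG in Hep3B.

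DUSP6 encodes the cytoplasmic phosphatase specific for ERK, often read as a gauge of ERK output, and lies at chromosome 12, 89347232 to 89353271 on the minus strand. In HepG2 on dishes it was 221 and 230 CPM in isotonic medium and 209 and 165 CPM in 4% PEG. The gap of -0.27 ± 0.13 was without overlap and small beside that of DUSP5. On transwells it was lower under the weight, at 134 and 125 CPM against 233 and 219 CPM, a log2 difference of -0.80 ± 0.13. In Hep3B the weight libraries were the higher ones, 25.3 and 29 CPM against 18.6 and 18.2 CPM (0.56 ± 0.13), and the 3% PEG libraries were the lowest of all groups, at 8.18 and 9.04 CPM (-1.09 ± 0.14). The 2 kinds of compression therefore lay on opposite sides of the control in Hep3B. DUSP6 shares exonic bases with an antisense gene, AC024909.2, which has no entry of that name in the table. The sources used here do not say whether counting used strand, so reads of the pair cannot be told apart.

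DUSP8 (chromosome 11, 1554044 to 1571920, minus strand) and DUSP10 (chromosome 1, 221701424 to 221742176, minus strand) encode phosphatases that favour JNK and p38 over ERK. DUSP8 read 7.18 and 17.1 CPM in isotonic HepG2 and 3.37 and 7.18 CPM in 4% PEG, so that the groups touched, and its log2 difference of -1.20 ± 0.38 ran from -1.84 to -0.45 when 1 library was left out. DUSP10 read 8.66 and 4.37 CPM in isotonic medium and 4 and 3.1 CPM in 4% PEG (-0.88 ± 0.27), and -0.31 without isotonic replicate 1. These are the members with the widest replicate gaps, 1.25 for DUSP8 and 0.98 for DUSP10 in log2, both in isotonic medium. Under the weight in HepG2 both stood above the control without overlap. DUSP8 was 5.04 and 4.76 CPM uncompressed and 11.7 and 11.4 CPM under the weight (1.24 ± 0.38). DUSP10 was 5.22 and 5.05 CPM uncompressed and 9.58 and 9.76 CPM under the weight (0.91 ± 0.27). In Hep3B, where both were more abundant, the treated libraries lay lower. DUSP8 was 29 and 31.8 CPM uncompressed, 26.6 and 26.1 CPM under the weight (-0.20 ± 0.35) and 17.2 and 19.6 CPM in 3% PEG (-0.72 ± 0.36). DUSP10 was 12.8 and 15.2 CPM uncompressed, 10.5 and 9.8 CPM under the weight (-0.47 ± 0.26) and 10.8 and 11.5 CPM in 3% PEG (-0.33 ± 0.26). The copies DUSP8P5 and DUSP8P1 had at most 25 and 2 counts in a library.

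SPRY4 encodes a Sprouty protein that blocks RAS activation downstream of growth factor receptors (chromosome 5, 142310427 to 142326455, minus strand). It stood at 69 and 68.9 CPM in isotonic HepG2 and 400 and 450 CPM in 4% PEG. This was, after DUSP5, the largest positive difference among the members in 4% PEG, 6.16-fold or 2.62 ± 0.15 in log2, and it ranked 1117th from the highest of 19232 genes. Under the weight HepG2 went the other way, 84.5 and 86.6 CPM against 48.5 and 59.7 CPM (-0.66 ± 0.14). Hep3B held little SPRY4, 3.18 and 3.26 CPM uncompressed, 6.57 and 7.53 CPM under the weight (1.13 ± 0.17) and 4.63 and 6.25 CPM in 3% PEG (0.76 ± 0.17). Both treatments of Hep3B thus lay above the control without overlap. The antisense gene SPRY4-AS1 reached 260 counts at most in a library.

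SPRY2, the other Sprouty member (chromosome 13, 80335976 to 80340951, minus strand), varied little. Its lowest library read 9.91 CPM, in Hep3B with 3% PEG, and its highest 16.1 CPM, in uncompressed HepG2, and the group means spanned 1.43-fold. In HepG2 the treated and control libraries overlapped in both comparisons (-0.19 ± 0.17 in 4% PEG, 0.00 ± 0.17 under the weight). In Hep3B its log2 differences were 0.07 ± 0.17 for the weight and -0.14 ± 0.17 for 3% PEG.

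SPRED1 (chromosome 15, 38252326 to 38357249, plus strand) brings neurofibromin to the membrane to switch RAS off, and SPRED2 (chromosome 2, 65310851 to 65432637, minus strand) is its close relative. SPRED1 lay between 59.7 and 78.3 CPM in all 8 HepG2 libraries, with log2 differences of 0.01 ± 0.15 in 4% PEG and 0.08 ± 0.15 under the weight. In Hep3B it was 33.3 and 35 CPM uncompressed, 44.4 and 48.7 CPM under the weight (0.45 ± 0.15) and 36.7 and 34.6 CPM in 3% PEG (0.06 ± 0.15). SPRED2 was 183 and 182 CPM in isotonic HepG2 and 149 and 161 CPM in 4% PEG, and 173 and 168 CPM uncompressed against 139 and 153 CPM under the weight (both -0.23 ± 0.10). In Hep3B it was higher in both treatments, from 73.5 and 79.7 CPM to 83.1 and 84.5 CPM under the weight (0.13 ± 0.10) and 103 and 109 CPM in 3% PEG (0.47 ± 0.10). The Spred genes thus spanned 2.03-fold and 2.38-fold over the 7 group means, against 256-fold for DUSP5, 132-fold for SPRY4 and 26.2-fold for DUSP6.

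**Figure D1:**
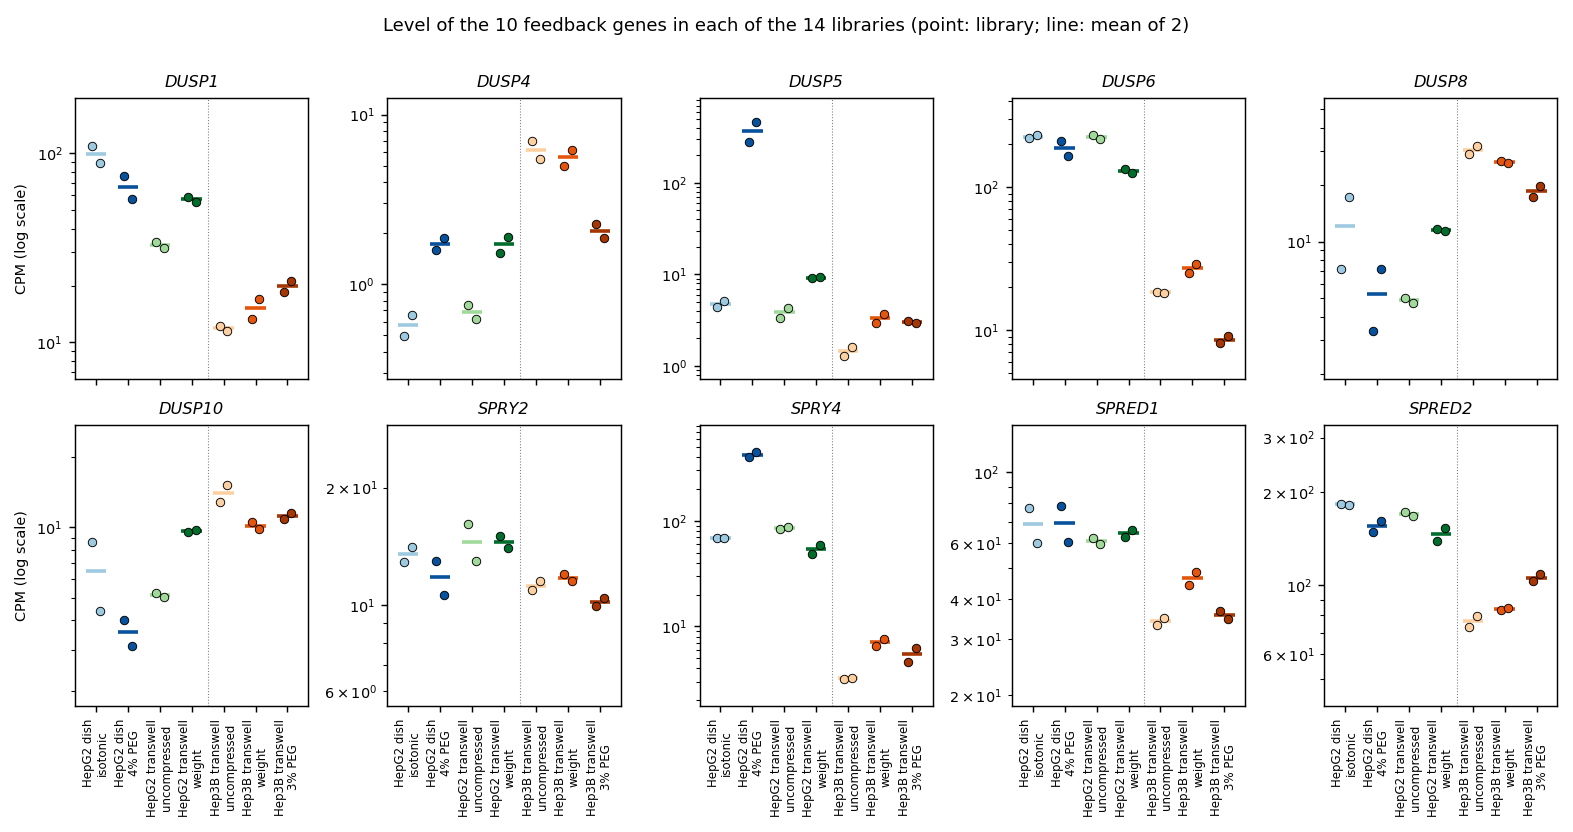
Level of each of the 10 members in CPM (log axis) in each of the 14 libraries, with 1 point per library and the 7 groups along the horizontal axis. DUSP5 at 277 and 468 CPM and SPRY4 at 400 and 450 CPM set HepG2 in 4% PEG apart, while SPRY2 stays between 9.91 and 16.1 CPM.

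In 4% PEG on dishes 6 of the 10 members were past the threshold, where 46.9% of all tested genes were. DUSP4, DUSP5 and SPRY4 were higher (3 of 10, against 23.9% of all genes) and DUSP1, DUSP8 and DUSP10 lower (3 of 10, against 23%). For the weight in HepG2 5 of 10 were past it (9.58% of all genes): DUSP1, DUSP4 and DUSP5 higher (5.4% of all genes) and DUSP6 and SPRY4 lower (4.18%). For the weight in Hep3B SPRY4 alone was past it, as a higher level, where 1.05% of all genes were past it, 0.879% higher and 0.172% lower. In 3% PEG 6 of 10 were past it (22.5% of all genes): DUSP1, DUSP5, SPRY4 and SPRED2 higher (11%) and DUSP4 and DUSP6 lower (11.5%). With any 1 library left out, the counts of members ran from 4 to 6, from 1 to 2, from 0 to 1 and from 2 to 5 in this order. Past the threshold in each of those fits were DUSP4, DUSP5 and SPRY4 for 4% PEG, DUSP6 for the weight in HepG2, no member for the weight in Hep3B (SPRY4 was past it without weight replicate 1 only), and DUSP4 and DUSP6 for 3% PEG. Nothing is read from these counts, because the members were selected on values of the same libraries.

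Counted by libraries alone, 3 members were higher and 4 lower in both 4% PEG libraries than in both controls, where 60.1% of all genes were apart in 1 direction or the other. The counts were 6 higher and 3 lower for the weight in HepG2 (65.4% of all genes apart), 6 higher and 2 lower for the weight in Hep3B (53.2%) and 4 higher and 5 lower for 3% PEG (73%). The median log2 difference over the 10 members was -0.21, 0.44, 0.24 and -0.04 in these comparisons, beside 0.01, 0.00, -0.01 and -0.01 over all tested genes. Scaling by total counts in place of TMM moved the median of all genes in 4% PEG to 0.37 and that of the members to 0.14; DUSP6, SPRY2 and SPRED2, none past the threshold there, then stood at 0.08, 0.16 and 0.12. The counts past the threshold given before rest on a spread pooled over all 14 libraries, and the counts by libraries alone do not. With the dish libraries fitted on their own, DUSP5 and SPRY4 were the 2 members past the threshold in 4% PEG (22% of genes tested), and with the transwell libraries on their own the numbers were 8 for the weight in HepG2 (38.6%), 6 for the weight in Hep3B (15.2%) and 8 for 3% PEG (52.6%).

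**Figure D2:**
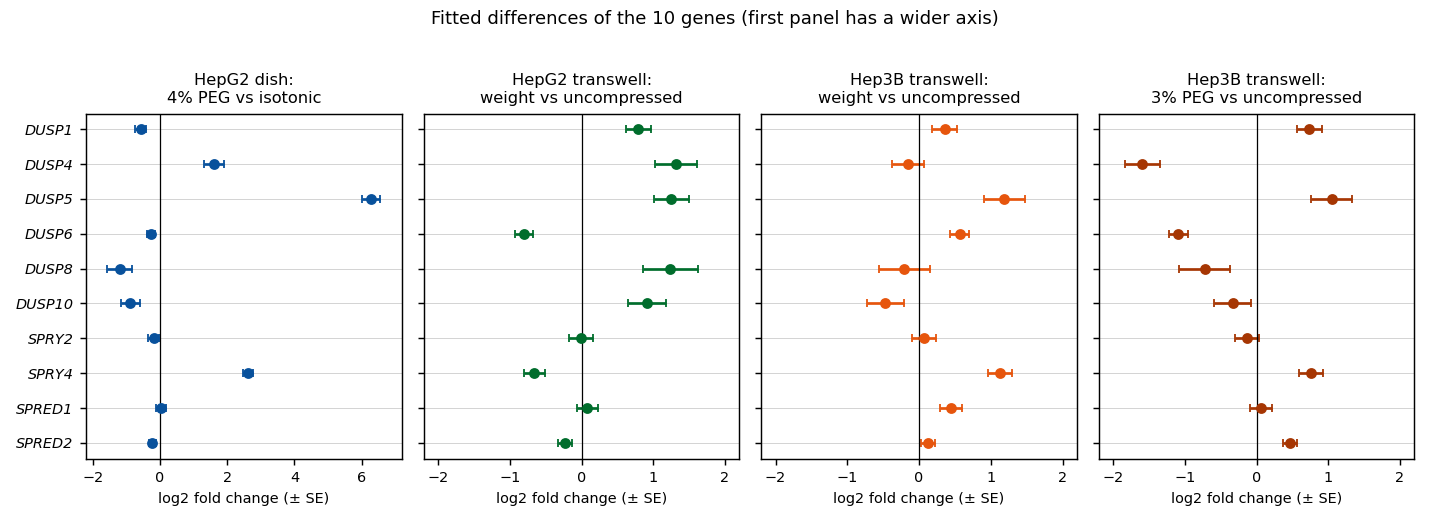
Log2 difference of each member between treated and control libraries (horizontal axis, points with bars of 1 standard error) in the 4 treatment comparisons, 1 panel each; the first panel has the wider axis. DUSP5 lies to the right of 0 in every panel, and DUSP6 lies at -0.80 under the weight in HepG2, 0.56 under the weight in Hep3B and -1.09 in 3% PEG.

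Of the treatments, the weight alone was given to both lines on the same surface. For 5 of the 10 members the libraries were apart in both lines and in opposite directions, which held for 11.2% of all tested genes. DUSP6, SPRY4 and SPRED2 were lower under the weight in HepG2 and higher in Hep3B, and DUSP8 and DUSP10 were higher in HepG2 and lower in Hep3B. The difference of the weight effects, Hep3B minus HepG2, was 1.79 ± 0.22 for SPRY4 and 1.36 ± 0.18 for DUSP6 in log2. In the fit over all genes these 2 of the 10 members lay past the threshold, beside 1.89% of all genes. Nothing is read from that count, since the members were chosen with these differences known. It was -1.47 ± 0.37 for DUSP4, -1.44 ± 0.52 for DUSP8 and -1.38 ± 0.37 for DUSP10, and within 0.5 of 0 for the other 5 members. For DUSP5 the difference was -0.07 ± 0.39, against effects of 1.25 and 1.19 in the lines.

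In Hep3B the weight and 3% PEG shared a control and a surface and can be set against each other directly. Weight libraries held more DUSP6 than 3% PEG libraries (1.66 ± 0.14 in log2) and more DUSP4 (1.44 ± 0.24), and less SPRED2 (-0.34 ± 0.10). These 3 of 10 members were past the threshold, where 23.1% of all genes were, and SPRED2 was not with any 1 of the 4 libraries left out. This count too is a description. DUSP5 (0.14), SPRY2 (0.21) and DUSP10 (-0.14) lay close to 0 in this contrast, and SPRY4, SPRED1, DUSP8 and DUSP1 at 0.37, 0.38, 0.52 and -0.38. The PEG treatments of the lines differ in dose and surface, so their values are given side by side only: 6.29 and 1.05 for DUSP5, 2.62 and 0.76 for SPRY4, 1.59 and -1.59 for DUSP4, and -0.58 and 0.74 for DUSP1 in HepG2 and Hep3B.

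The lines differed in these genes before any treatment. In uncompressed transwell libraries SPRY4 was 26.5-fold and DUSP6 12.3-fold lower in Hep3B than in HepG2, log2 differences of -4.73 ± 0.18 and -3.62 ± 0.14. DUSP1 (-1.47 ± 0.18), DUSP5 (-1.40 ± 0.28), SPRED2 (-1.15 ± 0.10) and SPRED1 (-0.83 ± 0.15) were lower in Hep3B as well. DUSP4 was 9-fold higher in Hep3B (3.17 ± 0.28), and the JNK and p38 phosphatases DUSP8 (2.63 ± 0.39) and DUSP10 (1.45 ± 0.27) were higher too. Of the 10 members 9 were past the threshold (54.7% of all genes), 3 higher (27.6%) and 6 lower (27.1%), and SPRY2 (-0.38 ± 0.17) was not. For 9 of the 10 members the line difference was larger in size than the difference in any of the 4 treatment comparisons, and DUSP5 was the exception, through 4% PEG.

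Levels per length of transcript allow members to be compared with each other. Among the 6 phosphatases, DUSP1 and DUSP6 made up 46.8% and 46.7% of the summed CPM per kb in isotonic HepG2, and DUSP5 1.75%. In 4% PEG DUSP5 made up 64.2% ± 12.2 (SD, n = 2), DUSP6 19% and DUSP1 15.6%. On transwells the share of DUSP6 in HepG2 was 70.2% uncompressed and 42.5% under the weight, and that of DUSP1 was 23.5% and 43%. Uncompressed Hep3B had no leading gene: DUSP8 held 29%, DUSP1 26%, DUSP10 21.2% and DUSP6 17.5%. In 3% PEG DUSP1 held 46.8% and DUSP6 8.89%. Of the 4 Sprouty and Spred members, SPRED2 held 60.4% and SPRY4 17.9% in isotonic HepG2, and 28.1% and 60.4% in 4% PEG. A share falls when another gene of the class takes more, so these are statements on make-up and not on levels.

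**Figure D3:**
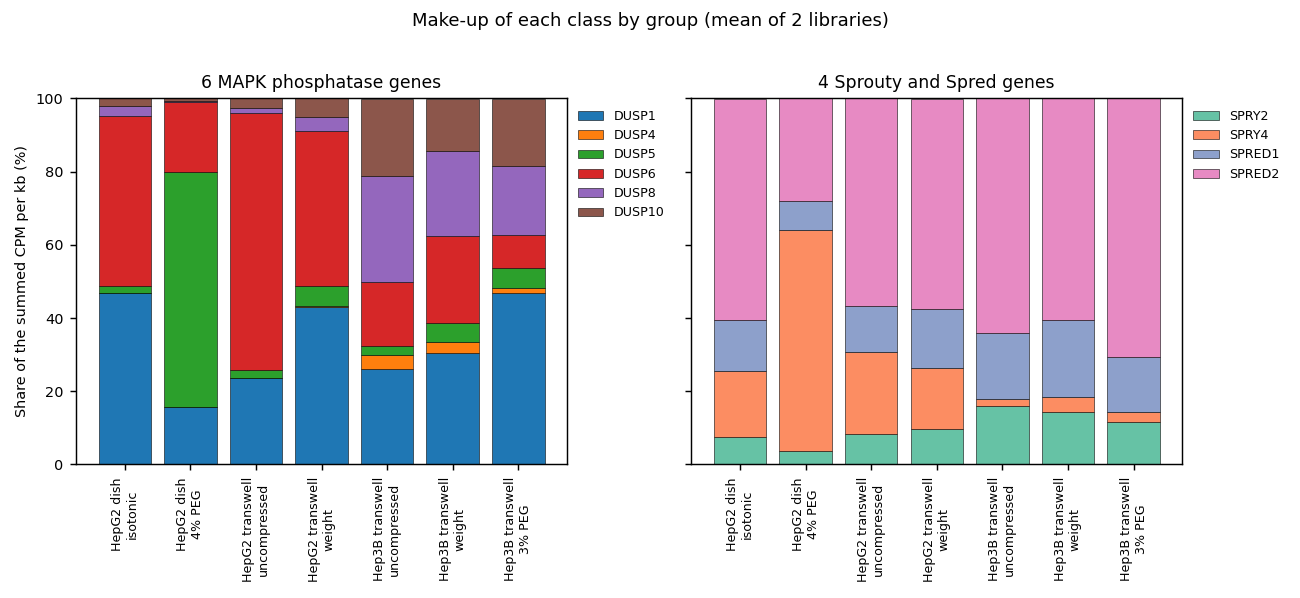
Share of each gene in the summed CPM per kb of its class (vertical axis, percent, mean of 2 libraries), for the 6 phosphatases and for the 4 Sprouty and Spred members in each of the 7 groups. DUSP5 takes 64.2% of the phosphatase sum in 4% PEG, and SPRY4 takes 60.4% of the Sprouty and Spred sum.

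Summed by role, the nuclear inducible phosphatases DUSP1, DUSP4 and DUSP5 read 114 and 94.5 CPM in isotonic HepG2 and 354 and 527 CPM in 4% PEG. They read 38.2 and 36.8 CPM in uncompressed HepG2 and 69.1 and 66.9 CPM under the weight. The sum was higher in the treated libraries of both HepG2 comparisons, through DUSP5 in PEG and mostly through DUSP1 under the weight. The phosphatases of JNK and p38, DUSP8 and DUSP10, summed to 15.8 and 21.5 CPM in isotonic HepG2 and 7.37 and 10.3 CPM in 4% PEG, and to 10.3 and 9.8 CPM uncompressed and 21.3 and 21.2 CPM under the weight. In Hep3B that sum was 41.8 and 47 CPM uncompressed, 37.1 and 35.9 CPM under the weight and 28 and 31.1 CPM in 3% PEG.

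The remaining genes of the same families were taken as a list of 7 and tested with edgeR's quasi-likelihood test, with p-values adjusted over all 19232 genes. DUSP2 had 1 count in 1 library and was not tested. In 4% PEG 2 of 6 rose and 3 fell, where 23.9% of all genes rose and 23% fell. SPRY1, a Sprouty gene like SPRY4, fell from 69.2 and 63.1 CPM to 13.8 and 11.2 CPM (-2.41 ± 0.15, adjusted p = 1.98e-07), opposite to SPRY4 in the same libraries. SPRED3 rose from 0.283 and 0.282 CPM to 8.73 and 15.5 CPM (5.40 ± 0.41, adjusted p = 9.61e-07), while SPRED1 stood at 0.01. DUSP16, a JNK phosphatase, fell from 179 and 197 CPM to 86.4 and 93.3 CPM (-1.07 ± 0.10, adjusted p = 6.18e-06). SPRY3 rose by 2.83 ± 0.44 from 0.141 and 0.188 CPM (adjusted p = 0.000281). DUSP9, an ERK phosphatase, fell from 141 and 320 CPM to 57.3 and 106 CPM (adjusted p = 0.00258), and its adjusted p was 0.0608 with the dish libraries on their own. DUSP7 did not pass the test.

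Under the weight none of the 6 passed edgeR's test in either line, where 9.58% of all genes did in HepG2 and 1.05% in Hep3B. At an unadjusted p under 0.05 there were 3 in HepG2 and 1 in Hep3B, and DESeq2 called 1 in each line. In 3% PEG SPRY1 fell from 8.91 and 9.47 CPM to 4.83 and 6.04 CPM (-0.75 ± 0.15, adjusted p = 0.00448, and 0.063 without PEG replicate 1). SPRED3 rose by 1.66 ± 0.48 (adjusted p = 0.0283), from 0.279 and 0.175 CPM to 0.564 and 0.883 CPM, and lost the call without either control or without PEG replicate 2, with an adjusted p of up to 0.214. Between the lines SPRY1 was lower in uncompressed Hep3B by -2.90 ± 0.15 (adjusted p = 2.38e-08), as SPRY4 was. The weight effect on SPRY1 differed between the lines by 1.07 ± 0.20 (adjusted p = 0.023), from 67.1 and 70 CPM to 53.3 and 53.1 CPM in HepG2 and from 8.91 and 9.47 CPM to 15.3 and 14.5 CPM in Hep3B. That call was lost without any 1 of the 8 libraries, at an adjusted p of 0.0902 to 0.147.

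**Figure D4:**
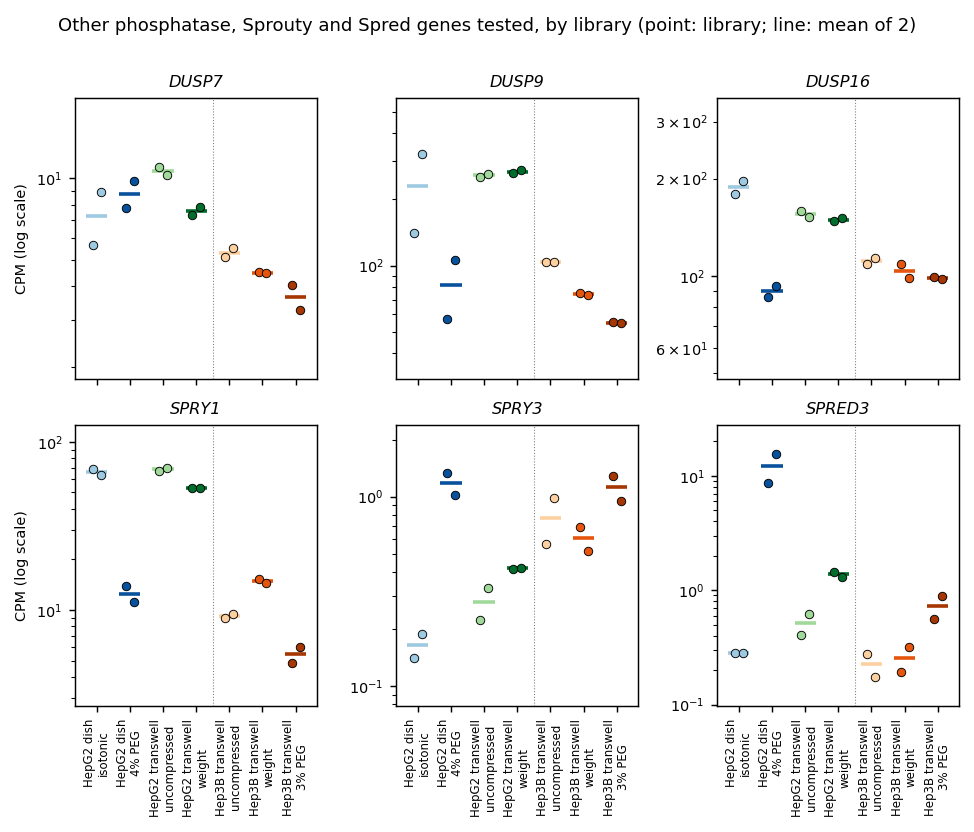
Level in CPM (log axis) of DUSP7, DUSP9, DUSP16, SPRY1, SPRY3 and SPRED3 in each of the 14 libraries, grouped along the horizontal axis. SPRY1 stands at 13.8 and 11.2 CPM in 4% PEG against 69.2 and 63.1 CPM in isotonic medium, and SPRED3 at 8.73 and 15.5 against 0.283 and 0.282.

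Around the members, 79 further genes of the pathway in 6 lists were followed, of which 75 could be tested, the family genes above among them. In 4% PEG 22 rose and 21 fell, 57.3% beside 46.9% of all genes, and with the dish libraries on their own 25 were past the threshold. Adjusted p-values given for 4% PEG rest on the spread pooled over all 14 libraries, which is below that of the dish pairs. Over the alternative fits they reached 0.00337 for SPRY1, 0.00208 for SPRED3 and 0.0215 for DUSP16. Under the weight 11 rose and 5 fell in HepG2 (21.3%, beside 9.58% of all genes). In Hep3B 2 rose and 0 fell under the weight (2.67%, beside 1.05%). In 3% PEG 18 rose and 11 fell (38.7%, beside 22.5%). With 1 library left out, 39 to 47 were past the threshold in 4% PEG, 6 to 9 for the weight in HepG2, 1 for the weight in Hep3B and 19 to 20 in 3% PEG. Median log2 differences over the 75 were 0.15, -0.01, 0.00 and -0.01.

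Upstream of the members, 18 receptors and ligands were tested. The share of all genes past the threshold was 46.9% in 4% PEG and 22.5% in 3% PEG. Under the weight it was 9.58% in HepG2 and 1.05% in Hep3B. In 4% PEG 12 of the 18 were past the threshold, 5 higher and 7 lower. EGFR, the receptor for EGF, rose from 75.1 and 57.1 CPM to 366 and 402 CPM (2.54 ± 0.16, adjusted p = 2.19e-07). KLB, the co-receptor through which FGF19 acts on liver cells, fell from 266 and 224 CPM to 18.1 and 18 CPM (-3.76 ± 0.12, adjusted p = 2.96e-09), and FGFR2 fell by 4.43 in log2 (adjusted p = 7.37e-08). Over the alternative fits the adjusted p in 4% PEG reached 0.0021 for EGFR, 0.00113 for KLB and 0.00314 for FGFR2. In 3% PEG 7 rose and 3 fell, with EREG, an EGFR ligand, from 33.3 and 36 CPM to 209 and 197 CPM (2.55 ± 0.20, adjusted p = 6.87e-06) and KLB and FGFR2 again lower (-1.49 ± 0.11 and -2.29 ± 0.13, adjusted p = 5.94e-06 and 9.37e-07). Under the weight in HepG2 3 rose and 3 fell, among them AREG, another EGFR ligand, from 3.79 and 2.77 CPM to 21.1 and 16.1 CPM (2.50 ± 0.29, adjusted p = 0.000378) and EGFR from 50.2 and 55.7 CPM to 88.1 and 107 CPM (0.88 ± 0.15, adjusted p = 0.00452). FGFR1 fell from 95.3 and 95.7 CPM to 40.2 and 39.5 CPM (-1.26 ± 0.18, adjusted p = 0.00117). The EGFR call there was lost when either uncompressed replicate 1 or weight replicate 2 was left out, at an adjusted p of up to 0.0681. In Hep3B under the weight none of the 18 passed edgeR's test, with 3 at an unadjusted p under 0.05 and 1 called by DESeq2.

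Between receptors and nucleus, the relay was followed in a list of 18 genes from RAS to kinases that ERK activates. Its counts and those of the other brakes stand beside 46.9% of all genes past the threshold in 4% PEG and 22.5% in 3% PEG. For the weight the shares were 9.58% in HepG2 and 1.05% in Hep3B. In 4% PEG 3 rose and 2 fell, in 3% PEG 3 rose, and under the weight in HepG2 SOS1 alone rose (adjusted p = 0.0349, and 0.115 to 0.194 with 1 library left out). With the weight on Hep3B none of them passed edgeR's test, with 1 at an unadjusted p under 0.05 and 0 called by DESeq2. The adaptor SHC1 and the ERK-activated kinase RPS6KA1 rose in 4% PEG (1.56 ± 0.22 and 1.76 ± 0.32, adjusted p = 0.00013 and 0.000775), and SHC1 rose in 3% PEG (0.70 ± 0.22, adjusted p = 0.0377, and 0.133 to 0.169 with 1 library left out). RPS6KA3, another kinase activated by ERK, fell in 4% PEG (-2.31 ± 0.21, adjusted p = 4.69e-06) and rose in 3% PEG (1.06 ± 0.21, adjusted p = 0.00369). SOS1, the exchange factor that loads RAS, rose in 3% PEG from 88.8 and 94.1 CPM to 282 and 281 CPM (1.62 ± 0.21, adjusted p = 0.000225). Among 8 other brakes 3 rose and 3 fell in 4% PEG, 2 rose and 1 fell under the weight in HepG2, and 1 rose and 1 fell in 3% PEG. In Hep3B under the weight none of the 8 passed edgeR's test (3 at an unadjusted p under 0.05, 1 called by DESeq2). PEBP1, an inhibitor of RAF, fell in both PEG comparisons (-2.66 ± 0.11, adjusted p = 1.26e-08, and -1.28 ± 0.11, adjusted p = 1.17e-05). IL17RD, also called Sef and a membrane inhibitor of FGF signalling, rose in 4% PEG from 0.601 and 0.986 CPM to 5.37 and 4.35 CPM (2.64 ± 0.26, adjusted p = 7.35e-06). ERRFI1, an EGFR inhibitor, fell in 4% PEG from 1740 and 1680 CPM to 1240 and 1150 CPM (-0.51 ± 0.10, adjusted p = 0.000924), rose in 3% PEG (0.83 ± 0.10, adjusted p = 0.000112) and under the weight in HepG2 (0.49 ± 0.10, adjusted p = 0.0077; lost without either control or weight replicate 1, at up to 0.107). LRIG1, which restrains EGFR family receptors, fell in 4% PEG (-1.64 ± 0.13, adjusted p = 1.57e-06). LRIG1 and IL17RD, the other brakes called under the weight in HepG2, lost the call without any 1 of the 4 libraries (adjusted p of 0.0962 to 0.282 and 0.0748 to 0.296).

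The JNK and p38 branches, on which DUSP8 and DUSP10 act, were followed in a list of 14 tested genes, from upstream kinases to transcription factors. Whether these 2 phosphatases act on the product of a given gene of the list was not tested. Of all genes 46.9% were past the threshold in 4% PEG and 22.5% in 3% PEG, and under the weight 9.58% in HepG2 and 1.05% in Hep3B. In 4% PEG 5 rose and 2 fell. MAPK13, a p38 kinase, rose from 53 and 68.1 CPM to 123 and 179 CPM (1.31 ± 0.17, adjusted p = 6.62e-05), and MAPKAPK2, a kinase that p38 activates, rose by 1.39 ± 0.14 (adjusted p = 9.34e-06), while DUSP8 and DUSP10 stood at -1.20 and -0.88. MAP3K5, also called ASK1 and an upstream kinase of both branches, rose from 0 and 0.0469 CPM to 4.83 and 3.54 CPM (adjusted p = 4.89e-06). Under the weight in HepG2 3 rose and 1 fell: JUN went from 41.6 and 39 CPM to 90.9 and 82.2 CPM (1.10 ± 0.12, adjusted p = 0.000236) and MAPK13 rose by 1.12 ± 0.17 (adjusted p = 0.00204), in libraries where DUSP8 and DUSP10 were higher. The gene that fell there was MAP2K6, a kinase that activates p38, from 15.6 and 14.7 CPM to 4.07 and 5.09 CPM (-1.73 ± 0.21, adjusted p = 0.00046). In 3% PEG ATF3, a stress-induced factor, rose from 16.9 and 16.5 CPM to 66.1 and 63.5 CPM (1.95 ± 0.13, adjusted p = 3.39e-06), as 1 of 3 that rose. MAPKAPK2 rose there by 0.75 ± 0.14 (adjusted p = 0.00268), and MAP2K6 was the 1 that fell (-0.72 ± 0.20, adjusted p = 0.0215, and 0.0865 to 0.145 with 1 library left out). In Hep3B under the weight none of the 14 passed edgeR's test, with 2 at an unadjusted p under 0.05 and 0 called by DESeq2.

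Since DUSP5, DUSP6 and SPRY4 are themselves outputs of ERK, 11 tested ERK output genes outside the members were followed beside them. Their counts stand beside 46.9% of all genes past the threshold in 4% PEG, and under the weight 9.58% in HepG2 and 1.05% in Hep3B. In 4% PEG 4 of 11 rose and 4 fell. FOSL1, a subunit of AP-1, rose from 2.76 and 4.32 CPM to 22.7 and 23.9 CPM (2.73 ± 0.29, adjusted p = 1.55e-05) and the immediate early gene EGR1 from 41.4 and 19.3 CPM to 253 and 120 CPM (2.61 ± 0.35, adjusted p = 9.61e-05; 1.94 without PEG replicate 1). MYC, a transcription factor that ERK stabilises, fell from 183 and 216 CPM to 88.3 and 101 CPM (-1.08 ± 0.13, adjusted p = 3.43e-05). ETV4, an ETS factor induced by ERK, fell by 1.24 in log2 (adjusted p = 0.00101). DUSP5 and SPRY4 were higher in these libraries, and DUSP6 stood at -0.27. Because outputs went in both directions, a member of either sign would find outputs of its own sign, and no agreement is read from this. Under the weight in Hep3B 2 rose and the other 9 did not pass the test: IER3, an early survival gene, from 19.8 and 20.3 CPM to 61.6 and 62.9 CPM (1.63 ± 0.15, adjusted p = 0.000263), and ETV5 (0.66 ± 0.13, adjusted p = 0.0437, lost without any 1 of the 4 libraries at 0.222 to 0.549). In HepG2 under the weight 2 rose, PHLDA1 and CCND1 (0.65 ± 0.11 and 0.85 ± 0.16, adjusted p = 0.00439 and 0.00622), and DUSP6 and SPRY4 were lower. The CCND1 call was lost without either control or weight replicate 1 (adjusted p of up to 0.0682), and that of PHLDA1 without either control (up to 0.0649).

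In 3% PEG 3 of the 11 outputs rose and 5 fell, where 22.5% of all genes were past the threshold. CCND1, which encodes cyclin D1, fell from 70.3 and 75 CPM to 22.1 and 21.6 CPM (-1.73 ± 0.16, adjusted p = 2.79e-05). PHLDA1 fell by 1.42 in log2 (adjusted p = 8.74e-06). ETV5 rose from 9.82 and 8.67 CPM to 19.5 and 19.7 CPM (1.09 ± 0.13, adjusted p = 0.000171). DUSP6 was lower in these libraries and SPRY4 and DUSP5 were higher. With outputs in both directions here too, no agreement between members and outputs is read from this. In the direct contrast of the weight with 3% PEG, 6 of the 11 were higher under the weight and 2 lower. The share of all genes past the threshold in that contrast was 23.1%. IER3 was higher by 2.10 ± 0.15 (adjusted p = 4.12e-06) and EPHA2 by 1.10 ± 0.27 (adjusted p = 0.0127), both named after their values were seen. The lowest of the 11 stood at -1.28.

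**Figure D5:**
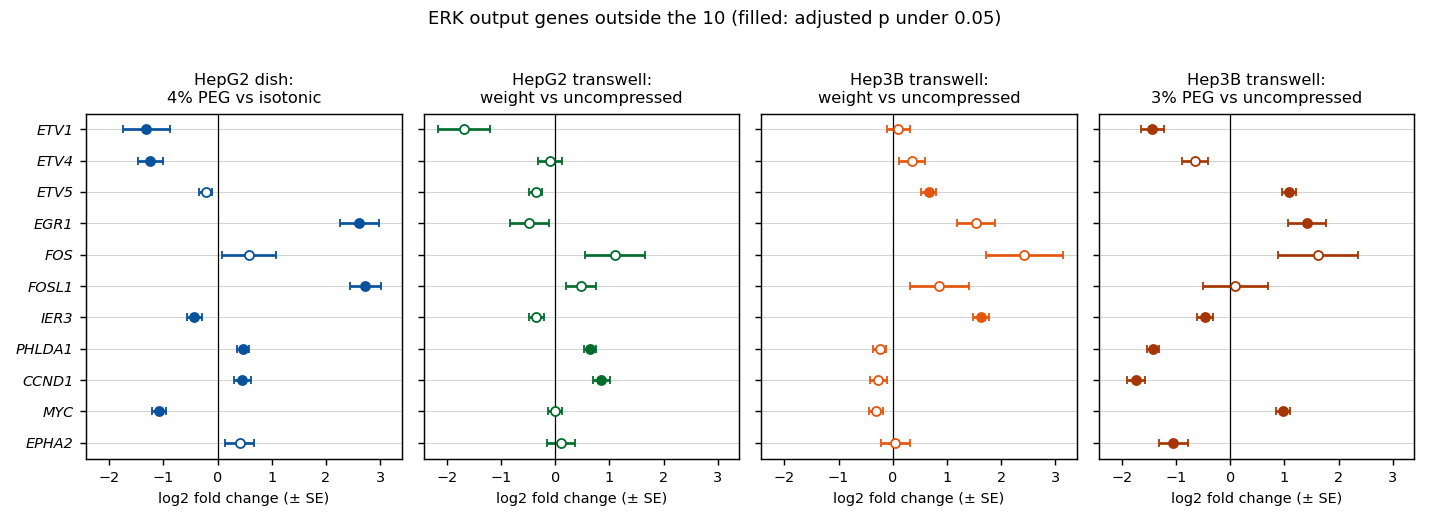
Log2 difference (horizontal axis, with bars of 1 standard error) of the 11 tested ERK output genes outside the members in the 4 treatment comparisons; filled points have an adjusted p under 0.05. In 4% PEG 4 are filled to the right of 0 and 4 to the left, and under the weight in Hep3B IER3 and ETV5 are filled.

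The order of the groups was clearest for DUSP5, DUSP6 and SPRY4. DUSP5 in 4% PEG lay above HepG2 under the weight, which lay above the other HepG2 groups; isotonic and uncompressed HepG2 (4.42 to 5.12 and 3.35 to 4.34 CPM) were close neighbours below it. The treated Hep3B groups overlapped (2.92 to 3.71 and 2.93 to 3.1 CPM) above uncompressed Hep3B. For DUSP6, the untreated HepG2 groups overlapped at the top (219 to 233 and 221 to 230 CPM), followed by 4% PEG, the weight, and the Hep3B groups in the order weight, uncompressed, 3% PEG, all without overlap. For SPRY4 the order was 4% PEG, uncompressed, isotonic and weighted HepG2, then weighted, 3% PEG and uncompressed Hep3B, with no overlap between neighbours. For DUSP1, 4% PEG and the weight overlapped among the HepG2 groups (57.3 to 75.8 and 55.7 to 58.5 CPM) and the other neighbours did not. For DUSP4 the uncompressed and weighted Hep3B groups overlapped at the top, as did the treated HepG2 groups (1.59 to 1.87 and 1.53 to 1.91 CPM) and the untreated ones at the bottom. For DUSP8 and DUSP10 the 3 Hep3B groups stood above all HepG2 groups and did not overlap each other, while isotonic HepG2 overlapped at least 1 other HepG2 group.

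The genes outside the members with the most similar course were found by the root mean square difference of centred log2 CPM over the 7 group means, among 13731 genes with a mean of at least 1 CPM. For DUSP5 they were GEM, a small GTPase (0.337), MLPH (0.391) and IGFN1 (0.397). GEM read 13.1 ± 0.592 CPM in 4% PEG (n = 2), and its means in the other 6 groups ran from 0.0175 to 0.311 CPM. MLPH read 9.74 CPM there against 0.0175 to 0.283 CPM, and IGFN1 34.1 CPM against 0.0351 to 0.324 CPM. These 3 genes reached a mean of 1 CPM through 4% PEG alone, so their likeness to DUSP5 is largely set by that 1 group. For SPRY4 they were SUSD2 (0.274), ZAP70 (0.404) and the metallothionein MT1A (0.459), with SUSD2 at 87.7 ± 31.8 CPM in 4% PEG against 9.08 in isotonic medium. ZAP70 read 9.38 CPM and MT1A 12.2 CPM in 4% PEG, and their other group means were at most 1.36 and 1.14 CPM. Both reached a mean of 1 CPM over the libraries through 4% PEG, so their likeness to SPRY4 is largely set by that group as well. For DUSP6 they were TFPI, an inhibitor of coagulation (0.354), ERV3-1 (0.357) and ZNF439 (0.378). All 3 stood far higher in every HepG2 group than in any Hep3B group, so their likeness to DUSP6 is largely set by the line difference. Under the weight in HepG2 the mean of DUSP6 went from 226 to 130 CPM. TFPI went from 1050 to 855 CPM and ZNF439 from 6.16 to 5.37 CPM there, while ERV3-1 went the other way, from 44.4 to 55.9 CPM. Among the members the closest pairs were SPRED1 with SPRED2 (0.229), SPRY2 with SPRED1 (0.292) and with SPRED2 (0.369), and DUSP8 with DUSP10 (0.459). SPRY2, SPRED1 and SPRED2 are the members whose group means spanned the least (1.43-fold, 2.03-fold and 2.38-fold). Genes that vary little lie close by this measure whatever their order of groups. All of these points share their libraries, and likeness over 7 means is a description.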

How the data were processed

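RNA was isolated with an RNeasy kit and read as pairs of 100 bases on HiSeq or NovaSeq instruments, per the labels' protocols. STAR, DESeq2 and the GRCh38 (hg38) build are listed in the submitters' processing notes. The counter, its strand setting and its gene models were not given in the sources used here. Raw counts per gene were deposited by the authors, 1 column per library, without pooling or scaling. Rows lacking a gene name (15420) took up to 0.308% of a library's counts.

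Sample titles put the 14 libraries into 7 groups of 2; the Hep3B columns named control were matched to the uncompressed group. Biological replicates are stated for the dish libraries alone, so p-values measure the spread between these samples, which may be technical on transwells. In no pair did replicate counts agree within sampling noise. Genes were kept by filterByExpr (minimum count 10) and scaled by TMM. A quasi-likelihood model (edgeR 4.0.16, R 4.3.3) with a mean for each group, which leaves 7 residual degrees of freedom, was fitted to all libraries, with Benjamini-Hochberg values over 19232 genes and a threshold of 0.05. The model was also run on simulated data in which a gene had the same spread in every library. That run cannot show how the wider dish spread affects the calls. The members, the lists, the motifs and the rule for named genes were chosen with earlier results of these data known. That rule took, from each list and comparison, up to 3 genes past the threshold by smallest p, with libraries apart and a mean of at least 1 CPM, and all 7 other family genes. ETV4, EPHA2 and IER3 were named beside the rule in 1 comparison each after their values were seen. GENCODE 29 gave coordinates and exon lengths, and RefSeq the promoter windows. Alternatives were RLE factors, total counts, no filter, a stricter filter (5 CPM in 2 libraries), DESeq2 1.42.0, a replicate term, narrower sets of libraries and leaving out each library.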

Additional observations from a re-analysis of the deposited data

Results flagged for a closer look

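The weight effect on 5 members went in opposite directions in the lines, with every weighted library apart from every control in each. The difference, Hep3B minus HepG2 in log2, was 1.79 for SPRY4, 1.36 for DUSP6, 0.36 for SPRED2, -1.38 for DUSP10 and -1.44 for DUSP8. For comparison, 11.2% of all tested genes were apart in opposite directions in the lines. In the fit over all libraries the Hep3B effect was -0.20 ± 0.35 for DUSP8, below its standard error, and 0.13 ± 0.10 for SPRED2, near it. With the transwell libraries on their own these effects were -0.17 ± 0.08 and 0.16 ± 0.06, and neither was past the threshold. No p-value is given for these members, which had been chosen with such values known, so the difference counts as not tested. Both controls and both weights of both lines enter each value. The standard error of the SPRED2 difference was 0.14, and those of the others are given in the report.

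Outside the members, 10 pathway genes had a weight effect that differed between the lines by edgeR's interaction test, adjusted over all genes. They were 13.3% of the 75 tested, beside 1.89% of all genes. Hep3B minus HepG2 in log2, the difference was positive for IER3 (1.99, adjusted p = 0.000539), MAP2K6 (1.52, adjusted p = 0.0206), SPRY1 (1.07, adjusted p = 0.023) and ETV5 (1.02, adjusted p = 0.017). It was negative for AREG (-2.33, adjusted p = 0.0115), CCND1 (-1.12, adjusted p = 0.0273), EGFR (-1.11, adjusted p = 0.0228), MAPK13 (-1.06, adjusted p = 0.0479), PHLDA1 (-0.89, adjusted p = 0.016) and JUN (-0.74, adjusted p = 0.0488). The IER3 call held without any 1 of the 8 libraries. The AREG call was lost in 4 of the 8 cases, with an adjusted p of up to 0.085, and the EGFR call in 6, with up to 0.134. The other 7 calls were lost in all 8 cases, at adjusted p from 0.0575 (MAP2K6) to 0.248 (JUN).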

How the results depend on the processing

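None of the 480 alternative values of a member in the treatment comparisons reversed a called direction, and 9 of them moved by more than the replicate spread. Of 759 alternative values of named pathway genes, 0 reversed and 111 were no longer past the threshold, most of them with 1 library left out. The counts depend on the spread used. With the libraries of a comparison alone, the numbers past the threshold were 2 members, 3764 genes and 25 pathway genes in 4% PEG (6, 9011 and 43 with all libraries), and the same with the dish libraries alone. For the weight in HepG2 they were 8, 6972 and 45, and 8, 7046 and 45 with all transwell libraries (5, 1842 and 16). For the weight in Hep3B they were 6, 2474 and 27, and 6, 2782 and 28 (1, 202 and 2). For 3% PEG they were 9864 genes and 57 pathway genes, and 9606 and 56 (4323 and 29). For the weight in Hep3B, the smallest set of calls, pathway genes numbered 4 with total counts and 4 with the stricter filter. Without a filter there were 2 members, 456 genes and 6 pathway genes, and by DESeq2 3, 488 and 7. The cause of these shifts was not tested.

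With 1 library left out, calls were 8640 to 9349 genes, 4 to 6 members and 39 to 47 pathway genes in 4% PEG, and 480 to 692, 1 to 2 and 6 to 9 for the weight in HepG2. They were 38 to 120, 0 to 1 and 1 to 1 for the weight in Hep3B, and 1999 to 2143, 2 to 5 and 19 to 20 for 3% PEG; each such fit has fewer libraries and assumes that the lone library varies like the others. For the weight in Hep3B the count of members was 1 without weight replicate 1 and 0 without any of the other 3 libraries. For the line difference the count stayed at 9. Of the tested genes, SOS1, LRIG1 and IL17RD under the weight in HepG2 lost the call without any 1 library of the comparison. The same held for ETV5 under the weight in Hep3B and for SHC1 and MAP2K6 in 3% PEG.

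Replicate numbers do not pair the libraries by the labels, and same-numbered libraries deviated together on dishes (r = 0.633) but not on transwells (0.0434, -0.0777 and 0.0732). With the replicate block, members past the threshold were 6 in 4% PEG, 7 for the weight in HepG2, 2 for the weight in Hep3B and 6 in 3% PEG, all genes 9419, 2149, 234 and 4724, and pathway genes 43, 18, 4 and 34.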
